A study of Homo sapiens with 33 samples.

Results

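Chromosome 19 is rich in genes of the C2H2 zinc finger class, the largest class of human transcription factors, and the RNA of its zinc finger genes was read here from the expression table of K562 cells, a human erythroleukemia line. The genes were those whose symbol is ZNF followed by a number and at most 1 letter and whose row lies on chromosome 19. They numbered 261 of the 58293 rows of the table, which is 46.9% of the 557 rows with such a symbol on any chromosome and 8.84% of the 2954 rows of chromosome 19. The table holds 1 library of total RNA from wild-type K562 cells, labelled as the input of the EZH2 RIP-seq, in which EZH2 is pulled down with the RNA it is crosslinked to. The methods describe RIP lysates made from the sonicated nuclei of fixed cells, so the share of cytoplasmic RNA in this input is not known. Expression is given as FPKM (fragments per kilobase of transcript and unit of library depth), with a lower and an upper bound for each gene that the authors deposited. Cytoplasmic, nuclear, nuclear polyA+ and nuclear polyA− RNA of wild-type K562 cells were sequenced as 1 library each, and their read counts are given on 900 fragments of RNA bound by EZH2. With 1 library per value there is no replicate error, and the bounds are those of the estimate in that library.

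Proteins of the C2H2 zinc finger class bind DNA through repeated fingers, each of which folds around a zinc ion held by a pair of cysteines and a pair of histidines. Many of them also carry a KRAB domain, which recruits the corepressor TRIM28 (also called KAP1), and TRIM28 in turn brings the histone methyltransferase SETDB1 and heterochromatin proteins to the bound site. Many KRAB zinc finger proteins are known to bind transposable elements. Their genes arose by repeated tandem duplication, which left them in clusters on both arms of chromosome 19.

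The label was checked against the coding sequence. The 245 protein-coding genes of the 261 were translated from their canonical GENCODE 44 transcripts, and all 245 held at least 1 finger, written as Cys, 2 to 4 residues, Cys, 12 residues, His, 3 to 5 residues and His. Such a finger was found in 859 of 19702 translated coding genes of the genome (4.36%). The median was 12 fingers per protein, with 1 in ZNF428 and 36 in ZNF208. A letter pattern of the KRAB A box was found in 199 of the 245 (81.2%), against 356 of the 19702 (1.81%), and these 199 made up 61.0% of the 326 coding genes of the genome with both the pattern and a finger. As examples of the repeated unit, 1 finger is printed for each of the 3 genes with the highest FPKM, ZNF121, ZNF146 and ZNF83. Another is printed for ZNF91, which has 31 fingers. Each is the first finger of the protein with spacings of 2, 12 and 3 residues that is followed by the conserved linker. The sequences are 78 bases of coding exon on the coding strand of GRCh38, 5′ to 3′, with the codons of the 2 cysteines and the 2 histidines in capitals and the linker codons at the end. They lie at chr19:9566600-9566677 (minus strand), chr19:36236660-36236737 (plus), chr19:52614121-52614198 (minus) and chr19:23362100-23362177 (minus).
ZNF121: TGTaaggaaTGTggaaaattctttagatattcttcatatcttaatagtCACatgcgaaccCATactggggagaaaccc
ZNF146: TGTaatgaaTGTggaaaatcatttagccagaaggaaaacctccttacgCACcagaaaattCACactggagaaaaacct
ZNF83: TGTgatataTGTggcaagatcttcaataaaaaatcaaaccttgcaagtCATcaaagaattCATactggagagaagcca
ZNF91: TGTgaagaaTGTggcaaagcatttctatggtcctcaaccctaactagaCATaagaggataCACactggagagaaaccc
The 4 fingers were picked by this spacing and linker, so the capitals stand at the same positions by construction. The bases between them differ. Because reads from such repeats can map to several genes and the authors removed alignments with mapping quality under 20, windows of 100 bases of every exon were mapped back to the genome. In 258 of the 261 genes at least 80% of the windows mapped to their own place at a minimap2 quality of at least 20. The median was 98.7%. The 3 lower ones were ZNF98 (66.3%), ZNF492 (72.6%) and ZNF417 (76.7%), whose FPKM is the least certain on this count. The authors aligned read pairs with STAR, so these single windows do not reproduce their filter.

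Expression of these genes was widespread and low. In bulk RNA, fewer expressing cells and less RNA per cell cannot be told apart. The FPKM was at least 1 in 150 of the 261 genes (57.5%, 95% Wilson interval 51.4 to 63.3, which treats the genes as independent although neighbours share sequence and position). The same level was reached by 21.8% of all rows of the table, which include many non-coding genes and pseudogenes. Among protein-coding genes it was reached by 143 of 245 (58.4%), against 49.2% of all 19757 coding rows, 542 of the 1217 other coding rows of chromosome 19 (44.5%) and 180 of the 262 coding ZNF rows of the other chromosomes (68.7%). The share among the coding members thus stood above that of their chromosome and below that of ZNF genes elsewhere. The lower bound was above 0 in 184 genes (70.5%), against 26.5% of all rows. The FPKM was below 0.1 in 27 genes (10.3%), against 54.2% of all rows and 28.0% of the coding ones.

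The median FPKM was 1.37, with quartiles of 0.340 and 3.65, beside a median of 0.0680 over all rows and of 0.902 over the coding rows. At the upper end the order against the other coding rows turned. An FPKM of 10 or more was found in 7 of the 261 genes (2.68%), against 7.37% of all rows. Among coding rows it was found in 2.86% of the members, in 16.5% of the others of chromosome 19 and in 19.6% of all. The coding ZNF rows elsewhere, with 13.0% at this level, stood above the members here as they did at 1. The highest value was 31.8, against 65.4 among ZNF genes elsewhere and 718 among all coding rows. The chromosome 19 genes thus had smaller shares than all coding rows both below 0.1 and at 10 or more. Of the 261, 113 had a lower bound of at least 1, 74 had an upper bound below 1 and the bounds of the remaining 74 enclosed 1.

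**Figure D1:**
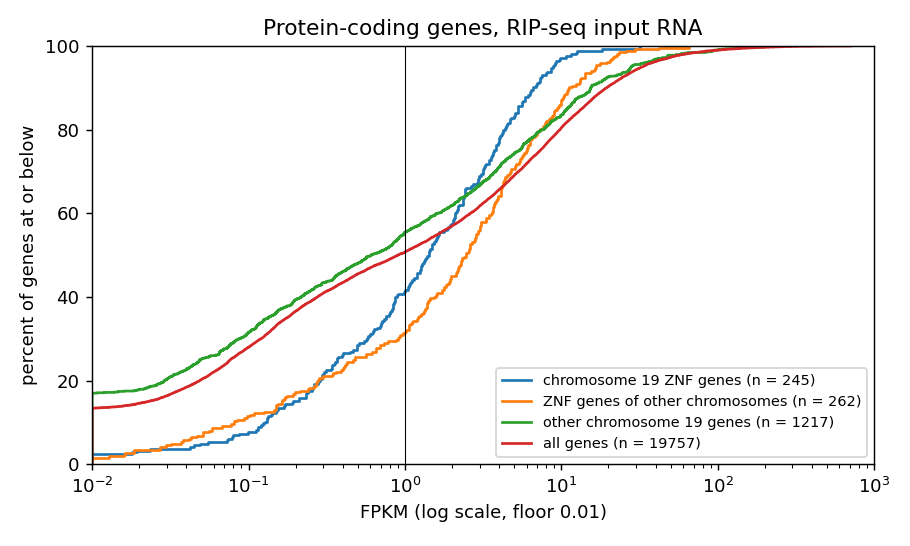
Cumulative distribution of FPKM (log scale, values under 0.01 drawn at 0.01) for the protein-coding genes of 4 sets in the input RNA. The line of the 245 chromosome 19 ZNF genes rises the most between 0.1 and 10: it lies below those of the other chromosome 19 genes and of all genes at an FPKM of 1 and above them at 10.

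As a check of the cells, all 9 erythroid markers were at an FPKM of at least 1, from 1.28 for EPOR, the erythropoietin receptor, to 218 for HBG2, a fetal globin. The 3 B cell markers were below 0.4, and of the 3 T cell and 3 epithelial markers only CD3D (6.29) and EPCAM (27.9) were above 1, with CDH1 and CD79A listed at 0. Of the 261 genes, 107 had another row of the table on the same strand within their span and 141 had one on the other strand. The libraries were made with a stranded kit, and whether the FPKM estimate used strand is not given in the sources used here. Of the 72 genes with no other row in the span, 37 (51.4%) were at an FPKM of at least 1, with a median of 1.12.

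The widest stretch of the chromosome without such a gene, chr19:24129962-30228289 in GRCh38, holds the centromere and left 92 genes on the short arm (19p) and 169 on the long arm (19q). The intervals of the shares of the arms overlapped. These intervals treat the genes as independent, and the difference between the arms was not tested. An FPKM of at least 1 was found in 54 genes of 19p (58.7%, 95% Wilson interval 48.5 to 68.2) and in 96 genes of 19q (56.8%, 49.3 to 64.0), a difference of -1.89 percentage points for 19q minus 19p. The sign of this difference depended on the threshold: at an FPKM of 0.1 it was 7.53 and at 2 it was 1.30. The median FPKM was 1.5 on 19p and 1.25 on 19q.

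The genes fell into 10 clusters, taken as runs of at least 5 genes with at most 500 kb between neighbours. They held 246 of the 261 genes, 4 lay on 19p and 6 on 19q, and each is named here by its first and last gene. Every cluster held genes on both sides of an FPKM of 1, and 9 of the 10 spanned from an FPKM below 0.1 to above 3. The exception, ZNF554 to ZNF77 near the end of 19p (chr19:2819874-2944971), had 5 genes between 0.121 for ZNF556 and 2.34 for ZNF77, 3 of them at 1 or more.

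**Figure D2:**
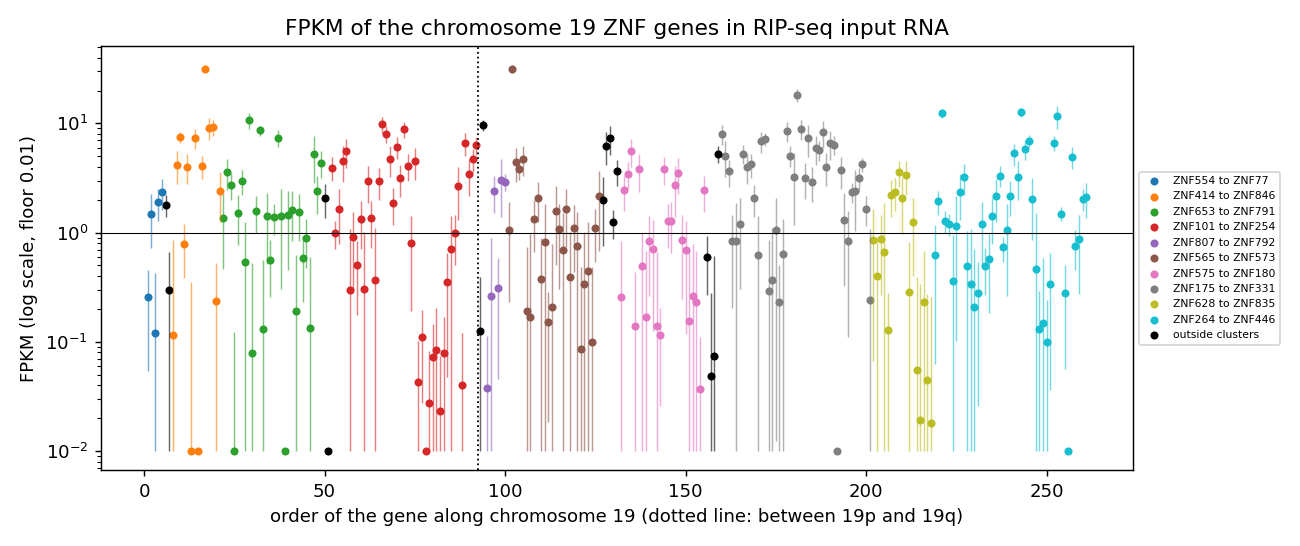
FPKM of the 261 genes (log scale, values under 0.01 drawn at 0.01) in their order along chromosome 19, coloured by cluster, with vertical lines for the deposited bounds and a dotted line between the 92 genes of 19p and the 169 of 19q. Every cluster has neighbours on either side of 1, and the 2 points above 30 are ZNF121 on 19p and ZNF146 on 19q.

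On 19p, the cluster from ZNF414 to ZNF846 (chr19:8509678-9793180) had 9 of 14 genes at 1 or more and the highest median of the 10, 4.02. It ran from ZNF560, listed at 0, to ZNF121. The cluster from ZNF653 to ZNF791 (chr19:11483427-12640098) had 18 of 28 at 1 or more and a median of 1.43, from ZNF625, listed at 0, to ZNF440. The largest cluster of 19p, ZNF101 to ZNF254 (chr19:19668796-24129961), lies next to the centromere and had 22 of 41 at 1 or more with a median of 1.35, from ZNF98, listed at 0, to ZNF714. This cluster held 8 of the 27 genes below 0.1, the largest number but not the largest share. That was 8 of its 41 genes, beside 4 of 17 in the cluster from ZNF628 to ZNF835. Over all 261 genes the share was 10.3%, and over all rows 54.2%. Those below 0.1 here included the pseudogenes ZNF209P, ZNF849P and ZNF725P, and ZNF98 and ZNF492, whose windows mapped back least often with those of ZNF417.

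On 19q, the cluster from ZNF175 to ZNF331 (chr19:51571298-53580269) had the largest share, 32 of 42 genes (76.2%) at 1 or more, and a median of 3.46. It ran from ZNF415, listed at 0, to ZNF83. The next cluster towards the end of the arm, ZNF628 to ZNF835 (chr19:55476332-56671783), had the smallest share, 6 of 17 (35.3%), and a median of 0.663, from 0.0180 for ZNF835 to 3.58 for ZNF787. The last cluster, ZNF264 to ZNF446 (chr19:57191500-58481230), had 25 of 43 at 1 or more and a median of 1.20, from ZNF837, listed at 0, to ZNF587B. The other 3 clusters of 19q lay between these values. ZNF807 to ZNF792 had 3 of 6 at 1 or more, from 0.0380 for the pseudogene ZNF807 to 3.06 for ZNF30. ZNF565 to ZNF573 had 13 of 26, from 0.0863 for ZNF793 to ZNF146. ZNF575 to ZNF180 had 10 of 24, from 0.0366 for the pseudogene ZNF285B to 5.56 for ZNF283.

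ZNF121 (ENSG00000197961.11, chr19:9560353-9584533, minus strand) and ZNF146 (ENSG00000167635.11, chr19:36214602-36238774, plus strand) were the highest genes of their arms. The FPKM of ZNF121 was 31.8 (bounds 29.5 to 34.1) and that of ZNF146, which encodes a protein made almost wholly of fingers, was 31.5 (28.9 to 34.1), so they did not differ beyond their bounds. ZNF83 (ENSG00000167766.18, chr19:52594060-52690496, minus strand) followed with 18.2 (15.6 to 20.8), and its bounds overlapped those of no other gene of the 261. All 3 lacked the KRAB pattern in the canonical protein, and had 9, 10 and 14 fingers. ZNF146 lies on the other strand within the span of ZNF565, whose FPKM was 1.06 (0.233 to 1.89).

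Below these 3, the values fell gradually. On 19p the next highest were ZNF440 with 10.7 (8.87 to 12.6), ZNF714 with 9.86 (8.21 to 11.5), ZNF562 with 9.26, ZNF561 with 9.08, ZNF100 with 8.86, ZNF700 with 8.63, ZNF431 with 8.08, ZNF317 with 7.51 and ZNF788, annotated as a pseudogene, with 7.43. On 19q they were ZNF587B with 12.6 (11.4 to 13.9), ZNF460 with 12.4 (11.1 to 13.6), ZNF544 with 11.6 (8.83 to 14.3), ZNF507 with 9.62, ZNF611 with 8.92, ZNF808 with 8.56, the pseudogene ZNF321P with 8.27 and ZNF175 with 8.0. Within each of these lists, the bounds of every gene overlapped those of the next. The 10 highest genes of the chromosome together held 22.6% of the summed FPKM of the 261, which was 696.

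The KRAB pattern is a fixed letter pattern read in the canonical protein alone, so a gene without it may still encode a KRAB domain. How many such genes it misses was not measured. Genes without the pattern were frequent at the top and less frequent in the whole. They made up 5 of the 10 highest coding genes and 46 of the 245 (18.8%). Over all coding members the order was the other way: 121 of the 199 with the pattern (60.8%) were at an FPKM of at least 1, with a median of 1.49, and 22 of the 46 without it (47.8%), with a median of 0.864. The pattern was present in 84.6% of the 143 coding genes at 1 or more, in 79.5% of the 83 between 0.1 and 1, and in 12 of the 19 below 0.1 (63.2%). The number of fingers differed little between these classes, with medians of 13, 12 and 12. Of the 56 genes with 16 or more fingers 39 (69.6%) were at 1 or more, of the 126 with 10 to 15 fingers 70 (55.6%), and of the 63 with up to 9 fingers 34 (54.0%). Spearman's rho across the 245 coding genes of this 1 library was 0.079 between fingers and FPKM and 0.29 between the annotated exon length and FPKM. These are descriptions over genes, which are not independent replicates.

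The 16 pseudogenes had a median of 0.169, and 7 of them were at 1 or more, all of a transcribed type. After ZNF321P and ZNF788, the highest were ZNF702P with 6.60 (4.61 to 8.59) and ZNF542P with 3.37 (2.21 to 4.52). The 5 annotated without transcription were all below 0.1, from 0.0275 for ZNF209P to 0.0835 for ZNF849P. The genes listed at exactly 0 were ZNF560, ZNF625, ZNF861P, ZNF98, ZNF415 and ZNF837, each with both bounds at 0. A value of 0 in such a table can be a failed estimate, and the read counts behind it were not used here.

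Neighbouring genes were compared by their bounds. Of the 236 pairs of neighbours within clusters, 107 (45.3%) had bounds that did not overlap. In 9 of these the lower gene was listed at 0 with both bounds at 0, and among the 226 pairs without such a gene the count was 98 (43.4%). Both genes were at 1 or more in 88 pairs, neither in 54, and only the higher in 94. Pairs of members that are not neighbours were not compared. These counts therefore do not say whether neighbours are more or less alike than other pairs. Among the 226 pairs with neither gene listed at 0, the 5 with the largest ratio shared 3 low genes, and 4 of them rank so high because the lower value was almost 0. ZNF177 was listed at a value indistinguishable from 0 with an upper bound of 0.356, between ZNF559 with 4.00 (2.79 to 5.22) and ZNF266 with 7.41 (5.85 to 8.97), and the readthrough row from ZNF559 into ZNF177 had an FPKM of 0.296 (0 to 1.22). The lower bound of ZNF266 was 16.4 times the upper bound of ZNF177, and that of ZNF559 was 7.84 times it. The pseudogene ZNF833P was likewise at almost 0 with an upper bound of 0.124, beside the pseudogene ZNF887P with 2.74 (1.98 to 3.50) and ZNF823 with 1.5 (0.770 to 2.23), whose lower bounds were 16 and 6.21 times that upper bound. ZNF675, whose product inhibits TRAF6 signalling, had an FPKM of 6.59 (5.08 to 8.11) beside 0.0399 (0 to 0.120) for the pseudogene ZNF725P, and its lower bound was 42.4 times the upper bound of ZNF725P. Ordered by this ratio of bounds instead, ZNF675 and ZNF725P came first, followed by ZNF257 over ZNF676 with 29.4 and ZNF440 over ZNF439 with 16.9, pairs that are named here after their values were seen.

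Other neighbours formed runs on the same side of 1, which are described here after their values were seen. The longest run at 1 or more was that from ZNF808 to ZNF160 on 19q (chr19:52527652-53103436), with 14 genes in a row between 2.92 and 18.2 and a median of 6.14. It included ZNF83, ZNF611, ZNF808 and 3 pseudogenes, ZNF137P, ZNF321P and ZNF702P. It ended at ZNF415, listed at 0, and was preceded by ZNF578 with 0.630. The longest run below 1 was that from ZNF676 to ZNF724 on 19p (chr19:22179091-23250390), with 11 genes from 0, listed for ZNF98, to 0.982 and a median of 0.0791. In this run 7 genes were below 0.1, among them the pseudogenes ZNF209P and ZNF849P. It also held 2 of the 3 genes with the lowest share of windows that mapped back, ZNF98 and ZNF492. On either side stood ZNF257 with 4.49 (3.01 to 5.96) and ZNF91 with 2.66 (1.30 to 4.01). The bounds of ZNF91 overlapped those of ZNF724, the last gene of the run, with 0.982 (0.507 to 1.46). The bounds of ZNF724 enclosed 1, as did those of ZNF730, with 0.706 (0.00244 to 1.41). A run of 9 genes at 1 or more, ZNF430 to ZNF43 (1.86 to 9.86), lay in the same cluster.

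A run of 5 genes at the end of the cluster from ZNF628 to ZNF835 was also low: ZNF667 had an FPKM of 0.0554, ZNF471 of 0.0194, ZNF470 of 0.233, ZNF71 of 0.0451 and ZNF835 of 0.0180, all with lower bounds of 0. Low genes did not all have promoters poor in CpG. To show this, the 250 bases before the RefSeq start (GRCh38.p14) are printed for the 2 highest genes and for ZNF667 and ZNF71, 5′ to 3′ on the strand of the gene, with each CpG in capitals. The positions are chr19:9584505-9584754 (minus strand), chr19:36214856-36215105 (plus), chr19:56477346-56477595 (minus) and chr19:56595052-56595301 (plus).
ZNF121: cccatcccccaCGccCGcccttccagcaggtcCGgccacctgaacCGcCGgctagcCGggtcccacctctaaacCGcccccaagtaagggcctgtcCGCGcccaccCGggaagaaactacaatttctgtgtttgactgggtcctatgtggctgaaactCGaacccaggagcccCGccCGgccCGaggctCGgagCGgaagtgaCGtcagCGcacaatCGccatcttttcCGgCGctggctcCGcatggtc
ZNF146: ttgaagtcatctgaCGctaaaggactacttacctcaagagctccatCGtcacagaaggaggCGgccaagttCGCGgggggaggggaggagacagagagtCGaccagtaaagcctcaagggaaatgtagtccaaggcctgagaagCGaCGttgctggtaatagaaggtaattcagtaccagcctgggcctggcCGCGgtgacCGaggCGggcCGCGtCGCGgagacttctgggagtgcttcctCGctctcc
ZNF667: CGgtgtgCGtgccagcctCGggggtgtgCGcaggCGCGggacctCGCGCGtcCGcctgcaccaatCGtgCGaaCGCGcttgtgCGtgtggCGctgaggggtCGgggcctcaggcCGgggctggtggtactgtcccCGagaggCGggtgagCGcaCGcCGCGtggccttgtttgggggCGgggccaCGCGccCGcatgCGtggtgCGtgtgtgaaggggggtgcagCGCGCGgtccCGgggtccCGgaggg
ZNF71: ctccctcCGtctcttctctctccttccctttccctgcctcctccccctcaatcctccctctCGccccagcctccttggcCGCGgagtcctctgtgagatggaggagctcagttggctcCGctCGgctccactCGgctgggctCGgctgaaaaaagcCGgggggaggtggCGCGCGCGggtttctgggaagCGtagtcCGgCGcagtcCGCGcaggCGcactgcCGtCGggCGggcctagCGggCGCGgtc
The promoter of ZNF121 held 22 CpG and that of ZNF146 held 17, while those of ZNF667 and ZNF71, at an FPKM under 0.1, held 35 and 25. Over the 214 members with a promoter in the RefSeq table the median was 16 CpG, against 11 over 34943 promoters. These members are coding genes, and 1 start was used for each, the first listed for its symbol. The 34943 are all distinct starts listed, so the sets are unlike. The median was 16 in genes at 1 or more, 15 between 0.1 and 1 and 14 below 0.1, and Spearman's rho with FPKM was -0.075 (n = 214 genes). Of the 110 genes with more than 15 CpG 68 (61.8%) were at 1 or more, and of the 104 with up to 15 CpG 60 (57.7%). DNA methylation was not measured in the files used.

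Among 15 members with a described role, a list drawn up from background knowledge, 10 were at an FPKM of at least 1 (the share was 57.5% over all 261), with a median of 2.66 beside 1.37 over the 261, so nothing particular to the list is read from this count. ZNF146 was the highest. ZNF274, which binds the 3′ ends of other zinc finger genes and recruits SETDB1 there, had 6.63 (5.57 to 7.69), and ZNF675 was at 6.59. Of the members known to bind retrotransposons, ZNF93, which represses LINE-1 elements, had 5.57 (3.87 to 7.27), ZNF649 had 3.65 (2.63 to 4.67), ZNF765 had 3.13 (2.38 to 3.89) and ZNF91, which represses SVA elements, had 2.66. ZNF224, a repressor of the aldolase A gene, was at 3.8 (2.72 to 4.89). ZNF420, a regulator of p53, was at 1.59 (0.509 to 2.67), and ZNF304 was at 1.20 (0.922 to 1.48). The other 5 had lower bounds of 0. They were ZNF350, a partner of BRCA1, with 0.843, the imprinted gene ZNF331 with 0.242, ZNF568 with 0.209, ZNF382 with 0.190 and ZNF536, a regulator of neuronal differentiation, with 0.124.

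A fixed list of 18 genes held corepressors that KRAB proteins recruit and genes of the HUSH silencing complex. All 18 were at 1 or more, against 49.2% of all coding rows, and at higher values than most of the zinc finger genes. They ran from 7.24 (6.17 to 8.30) for the histone methyltransferase gene EHMT2 to 132 (122 to 142) for DNMT1, the maintenance DNA methyltransferase. Their median was 23.2, beside 0.902 over all coding rows. TRIM28 had an FPKM of 82.9 (76.3 to 89.6) and SETDB1 of 19.2 (16.3 to 22.1). The lower bound of TRIM28 lay above the upper bound of each of the 261 zinc finger genes.

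The fragments bound by EZH2 were then set on the spans of the genes. None of the 900 fragments had at least 50% of its length in any of the 261 spans, and none shared a base with one. The list is shorter than the full set of EZH2-bound fragments that the study describes, and the remainder was not analysed here. The count of 0 therefore holds for the listed fragments alone. The spans covered 7578575 bp, which is 12.9% of chromosome 19 and 0.245% of the genome, and chromosome 19 held 4 of the fragments (0.444%). Of the rows with an FPKM of at least 1, 2.44% held a fragment. The same count was 0 of the 150 zinc finger genes at 1 or more, and 3 of the 184 ZNF rows elsewhere at that level, namely ZNF117, ZNF385D and ZNF767P. A count of 0 in 150 allows up to 2.00%, taken as 3 divided by the number of genes. This limit treats the genes as independent, which neighbours are not. Genes with a fragment were long, with a median span of 150584 bp against 26166 bp for the 150 zinc finger genes. Among rows at 1 or more that were no longer than the longest of these 150, 161590 bp, 168 of 11823 (1.42%) held a fragment. At this number of zinc finger genes, a share like that could not be told from 0. Those rows were not matched for length, and their median span was 20314 bp.

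The nearest fragment lay 3848 bp past the end of ZNF8, a gene with an FPKM of 1.49, in the cluster from ZNF264 to ZNF446. It spans chr19:58306653-58309283 (2631 bp) and lies inside ERVK3-1, a gene derived from an endogenous retrovirus, whose FPKM was 27.5 (23.9 to 31.2). It also lies within the spans of 2 longer rows, CTD-3138B18.4, which begins at ZNF544 and had an FPKM of 2.55, and AC010642.1 with 1.41. The fragment had 17 reads in cytoplasmic, 255 in nuclear, 465 in nuclear polyA+ and 159 in nuclear polyA− RNA. As deposited, the nuclear count was 15.0 times the cytoplasmic one (exact 95% interval 9.18 to 26.2, exact binomial test, two-sided, adjusted p = 1.04e-54), and 88.0% of all 900 fragments were called higher in nuclear RNA in this way. The summed reads on the fragments were 105661 in the nuclear and 7929 in the cytoplasmic library, and scaled to these sums the ratio was 1.13 (adjusted p = 0.989 by the exact binomial test) and 14.0% of the fragments were called higher in nuclear RNA. With the median ratio set equal, the ratio was 0.682 and 2.56% were so called. The polyA+ count was 2.92 times the polyA− count (exact 95% interval 2.44 to 3.52, adjusted p = 1.20e-34 by the same test), a direction called in 6.89% of the fragments. Scaled to the sums it was 5.35 times, with 14.3% of the fragments called in this direction, and with the median ratio set equal it was 10.3 times, with 28.0%. With 1 library per fraction, the test speaks of these libraries alone, and the intervals cover counting error only.

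The other 3 fragments of chromosome 19 lay more than 100 kb from any of the genes. The first was 1617611 bp from ZNF536, with 1069 nuclear and 218 cytoplasmic reads. The others lay in UBA2 and in RPS19, with 12 and 147 nuclear reads.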

How the data were processed

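The authors trimmed the reads with TrimGalore, aligned them to GRCh38 by STAR using GENCODE 26, discarded duplicate pairs and any alignment of mapping quality below 20, and deposited FPKM per gene with bounds (cuffdiff) for the RIP-seq input. The confidence level of the bounds is not given in the sources used here. For the 4 fractions they deposited raw read counts per fragment (featureCounts). Both kinds of library were stranded, and rRNA was depleted from the fractionated RNA. Library totals are not in these files, so counts were compared as deposited, by a two-sided exact binomial test per fragment with Benjamini-Hochberg adjustment over all 900 and a threshold of 0.05. The script of this test was tested on simulated data. FPKM values, which come from 1 library, received no test. Between 7929 and 106051 reads per library lay on the fragments.

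The gene spans are those of the FPKM table. Biotypes, exons and coding sequences came from GENCODE 44, in which all 261 identifiers were found, 162 with the same start. Fingers were counted in translated canonical transcripts instead of RefSeq proteins, and promoters were taken from RefSeq. Exon windows of 100 bases, every 25 bases, were mapped with minimap2 2.31 to the main chromosomes. The named genes are the 10 highest of each arm, the highest and lowest of each cluster, the members with a described role and the 5 pairs of neighbours with the largest ratio and separate bounds. Genes named as part of a run or for their promoter or number of fingers were picked with their values in view. The members and lists were chosen with earlier results of these data known. Python 3.11.15, numpy 2.4.6, pandas 2.3.3, scipy 1.17.1, pysam 0.24.0, Biopython 1.88, samtools 1.23.1 and matplotlib 3.10.9 were used. Alternatives comprised other FPKM thresholds, pseudocounts, cluster gaps, overlaps and scalings of the counts. The study's other samples were not analysed here.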

Additional observations from a re-analysis of the deposited data

How the results depend on the processing

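The number of genes counted as expressed, 150 at an FPKM of 1, was 234 at a threshold of 0.1 and 44 at 5. It stayed within 1.5 times at thresholds of 0.5 and 2, with the lower bound at or above 1, with uniquely mapping genes and with protein-coding genes. Over genes with no other row in their span, a choice made after seeing the data, it was 37 of 72. The median FPKM was 2.42 over genes with a lower bound above 0. The difference between the arms, -1.89 percentage points, reversed to 7.53 at a threshold of 0.1 and to 1.30 at 2, and kept its sign among protein-coding genes, another choice made after seeing the data. The 10 clusters became 11 or 9 with gaps of 250 or 1000 kb. Spans extended by 10 kb took in 1 fragment, that beside ZNF8. Fragments higher in nuclear RNA numbered 792 as deposited, 126 with libraries scaled to their sums and 23 with the median ratio set equal. Those higher in polyA− RNA numbered 612, 407 and 174. For the fragment beside ZNF8, the ratio of nuclear to cytoplasmic reads was 1.13 (adjusted p = 0.989) and 0.682 (adjusted p = 0.469) under these scalings by the exact binomial test, against 15.0 as deposited (adjusted p = 1.04e-54), while polyA+ stayed the higher under both (5.35 and 10.3 times, against 2.92). These scalings change the ratio by construction. No paired analysis was possible because each analysed group has 1 library. With 1 library, the depth behind a single FPKM is known only through its bounds. An FPKM under 0.1 cannot be told from 0 here. The same holds for higher values with a lower bound of 0, such as 0.843 for ZNF350. The lower bound was above 0 in 184 of the 261 genes.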

Other observations

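Rows named after the zinc finger genes with a suffix, which were not counted among the 261, were mostly low. Of 11 antisense rows on chromosome 19, 2 were at an FPKM of at least 1, ZNF571-AS1 with 1.35 (bounds 0.0268 to 2.67) and ZNF529-AS1 with 1.03 (0.378 to 1.69), and the median was 0.213. ZNF790-AS1 and ZNF793-AS1 were listed at 0. ZNF667-AS1, which starts opposite to the low gene ZNF667, had 0.345 (0 to 1.20). The 3 readthrough rows that join neighbouring zinc finger genes were all below 1, and the highest was that from ZNF559 into ZNF177 with 0.296. The row that joins ZNF816 to ZNF321P had 0.222 (0 to 0.505), while ZNF321P itself had 8.27.

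Of the 15 genes that lie outside the clusters, ZNF507 was the highest with 9.62 (8.60 to 10.6), followed by the neighbours ZNF780A with 7.30 (5.14 to 9.46) and ZNF780B with 6.27 (4.2 to 8.34). ZNF861P was listed at 0, and ZNF541 and ZNF114 were below 0.1.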
